A study of Mus musculus with 6 samples.

Results

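The genes described here are 6 markers of the choroid plexus epithelium, Ttr, Aqp1, Kcnj13, Otx2, Cldn2 and 1500015O10Rik, taken by name from the authors' deposited table of 466 genes for microglial RNA of 5×FAD mice. All 6 are in that table. The choroid plexus is a tuft of tissue in each brain ventricle whose epithelial cells secrete cerebrospinal fluid and form the barrier between blood and that fluid. These cells move ions and water toward the ventricle, are joined by tight junctions, and make carrier proteins such as transthyretin, which binds thyroid hormone. Microglia, the resident macrophages of the brain, are not known for expressing these genes.

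Microglia were isolated from adult brain of male mice of strain C57BL/6N that carried the 5×FAD transgenes, a model of amyloid deposition in Alzheimer's disease. The knockout group (Piezo1MGKO; FAD) held 3 samples from mice with the Cx3cr1CreER-EYFP allele and floxed Piezo1, a mechanically gated cation channel gene. The control group (Piezo1fl/fl; FAD) held 3 samples from floxed littermates whose labels name no Cre, and both groups carried 5×FAD and received tamoxifen at 20 mg/kg on 4 days from 4.5 weeks of age. The age at isolation and the number of mice behind each sample are not given in the sources used here. The Cre is driven from the locus of Cx3cr1, a gene of microglia and other macrophages, and effects of Piezo1 loss and of the Cre allele cannot be told apart. The comparison asks which transcripts differ when Piezo1 is deleted in microglia.

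Values are normalised reads, the read counts of a gene divided by a factor for the sample's sequencing depth. The table lists only genes that the authors had selected on these samples: the largest unadjusted p in it was 0.0499 and the smallest absolute log2 fold change was 1.00. Being listed and being lower are therefore not independent results for any gene named below. Of the 466 listed genes, 410 (88.0%) were lower in the knockout. Recovered reads over the listed genes summed to between 49643 (knockout 2) and 180760 (control 3), which is not a library depth. Piezo1 is not listed and was not analysed here. Of 18 microglial markers, Cx3cr1 was the one listed, with means of 31895 ± 3899 and 66461 ± 11266 normalised reads for knockouts and controls (SD, n = 3 each). The controls stood apart from one another: of the 410 lower genes, control 3 was the top sample for 224, control 2 for 173 and control 1 for 13.

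The stretches of DNA just before the start of 4 members are shown here because these 4 genes had high proportions to Ttr in control 3 and Otx2 did not, as given further on; no window was used for Ttr. They are the 250 bases upstream of the annotated start, 5′ to 3′ on the gene's strand, from RefSeq (GRCm38.p6). Capitals mark TATAAA, the TATA box letters. The 1500015O10Rik sequence lies at chr1:43730352-43730601 on the plus strand and is listed by RefSeq under the symbol Ecrg4, that of Kcnj13 at chr1:87394730-87394979 on the minus strand, that of Cldn2 at chrX:139800558-139800807 on the plus strand and that of Aqp1 at chr6:55336049-55336298 on the plus strand.
1500015O10Rik: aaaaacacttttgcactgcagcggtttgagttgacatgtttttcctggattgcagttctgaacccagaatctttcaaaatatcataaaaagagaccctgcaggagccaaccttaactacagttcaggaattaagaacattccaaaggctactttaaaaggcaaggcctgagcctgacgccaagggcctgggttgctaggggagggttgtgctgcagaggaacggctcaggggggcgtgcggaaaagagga
Kcnj13: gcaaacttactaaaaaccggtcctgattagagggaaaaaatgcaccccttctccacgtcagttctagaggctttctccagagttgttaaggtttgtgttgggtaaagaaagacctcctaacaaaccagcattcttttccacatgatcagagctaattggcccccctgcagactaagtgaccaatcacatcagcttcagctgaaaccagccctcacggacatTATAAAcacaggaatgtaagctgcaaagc
Cldn2: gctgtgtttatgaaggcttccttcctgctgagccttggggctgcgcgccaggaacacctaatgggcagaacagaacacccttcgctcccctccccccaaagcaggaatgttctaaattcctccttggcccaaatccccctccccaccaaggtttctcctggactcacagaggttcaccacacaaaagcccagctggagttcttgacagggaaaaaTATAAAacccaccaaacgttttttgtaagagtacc
Aqp1: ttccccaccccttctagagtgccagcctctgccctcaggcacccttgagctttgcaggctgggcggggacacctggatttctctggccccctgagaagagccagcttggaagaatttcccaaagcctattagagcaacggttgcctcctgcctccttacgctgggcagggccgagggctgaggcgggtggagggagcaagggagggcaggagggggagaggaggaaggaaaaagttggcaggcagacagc

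TATAAA, searched on both strands after these windows had been seen, began 29 bases before the start of Kcnj13 and 35 bases before that of Cldn2. One of 4 start sites of Otx2 also had it, 192 bases upstream. So did 2 of 10 further choroid plexus genes with a window, Krt8 (3 and 1 bases before the start) and Slc29a4 (232 bases before it). Over all 32851 promoter windows of 300 bases, 13.6% held TATAAA on either strand. TAATCC, the core letters bound by OTX homeodomain proteins, was searched on both strands in the same windows. It was found in 1 of the 8 windows of the 5 members with a window, at another start of Otx2 and 211 bases upstream, and in 0 of the 11 windows of 10 further choroid plexus genes. Over all windows its share was 7.06%. These matches describe letters and are not binding sites.

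The secreted products came first by level. Ttr, which encodes transthyretin (ENSMUSG00000061808, chromosome 18, positions 20665250 to 20674324, GRCm38), had 1955, 847 and 563 normalised reads in knockouts 1, 2 and 3, against 3369, 18571 and 265 in controls 1, 2 and 3. Control 2 was far above every other sample, control 1 was next, and control 3 was the lowest of the 6, so the groups overlapped. The group means were 1121 ± 736 and 7402 ± 9796 (SD, n = 3 each), a 6.60-fold difference that was 1.62-fold without control 2. In a fit with limma across the 466 genes the log2 difference, knockout minus control on the log2(value + 1) scale, was -1.39 (SE 1.24, limma adjusted p = 0.298). It was 0.046 without control 2 (limma adjusted p = 0.972) and -3.02 without control 3 (limma adjusted p = 0.0913). On recovered reads the log2 fold change was -2.72 in both edgeR (adjusted p = 0.0733) and DESeq2 (adjusted p = 0.0830). The adjusted p-values of limma, edgeR and DESeq2 cover the 466 selected genes alone, so they are not false discovery rates over all genes.

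1500015O10Rik, the gene of augurin, a secreted peptide precursor (ENSMUSG00000026051, chromosome 1, positions 43730602 to 43742578), had 13.8, 7.15 and 5.06 normalised reads in knockouts 1, 2 and 3 against 30.4, 158 and 41.1 in controls 1, 2 and 3. Every control lay above every knockout, by the smallest margin between control 1 and knockout 1. The means were 8.66 ± 4.54 and 76.5 ± 70.8 (SD, n = 3 each), an 8.84-fold difference that was 4.13-fold without control 2. By the authors' deposited table it was the one member that fell at a threshold of 0.05, with a log2 fold change of -3.14 and an adjusted p of 0.0140. The authors' adjusted p, over 19107 genes, was 0.531 for Kcnj13, 0.542 for Aqp1, 0.692 for Cldn2 and 0.9998 for Otx2 and Ttr. There, 14 of the 466 listed genes, or 3.00%, were called. In limma the log2 difference was -2.72 (SE 0.81, limma adjusted p = 0.0533), and the exact two-sided permutation p was 0.1, the smallest that 3 against 3 samples allow. It had the largest log2 difference of the 6 members in both sources.

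Water and potassium handling was represented by Aqp1 and Kcnj13. Aqp1, the water channel of the apical membrane (ENSMUSG00000004655, chromosome 6, positions 55336432 to 55348555), had 18.7, 3.06 and 3.04 normalised reads in knockouts 1, 2 and 3 against 15.7, 116 and 23.5 in controls 1, 2 and 3. Knockout 1 lay above control 1, so the groups overlapped through that pair alone. The log2 difference was -2.41 (SE 0.98, limma adjusted p = 0.0780). Kcnj13, which encodes the inward-rectifier potassium channel Kir7.1 (ENSMUSG00000079436, chromosome 1, positions 87386363 to 87394729), had 4.92, 3.06 and 5.06 normalised reads in knockouts 1, 2 and 3 against 7.85, 72.7 and 12.7 in controls 1, 2 and 3. The groups did not overlap, but the recovered reads behind these values were 5, 3 and 5 in the knockouts and 8 in control 1. The log2 difference was -1.98 (SE 0.91, limma adjusted p = 0.0963).

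The barrier and the epithelial identity were represented by Cldn2 and Otx2. Cldn2, the claudin that forms cation- and water-permeable pores in leaky tight junctions (ENSMUSG00000047230, chromosome X, positions 139800828 to 139811386), had 9.83, 5.11 and 1.01 normalised reads in knockouts 1, 2 and 3 against 13.7, 68.9 and 13.7 in controls 1, 2 and 3. The groups did not overlap, and knockout 3 rested on 1 read. The log2 difference was -2.28 (SE 0.94, limma adjusted p = 0.0811). Otx2, the homeobox transcription factor needed to form and keep the choroid plexus (ENSMUSG00000021848, chromosome 14, positions 48657677 to 48673819), had 11.8, 11.2 and 6.07 normalised reads in knockouts 1, 2 and 3 against 13.7, 125 and 2.94 in controls 1, 2 and 3. Control 2 was far above the rest, control 1 was just above knockout 1 and control 3 was the lowest of the 6, so the groups overlapped. The log2 difference was -0.91 (SE 1.15, limma adjusted p = 0.452), and 0.44 without control 2 (limma adjusted p = 0.638). The ratio of the means was 4.87, and the log2 fold change on recovered reads was -2.27 in edgeR (adjusted p = 0.110) and -2.28 in DESeq2 (adjusted p = 0.103).

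**Figure D1:**
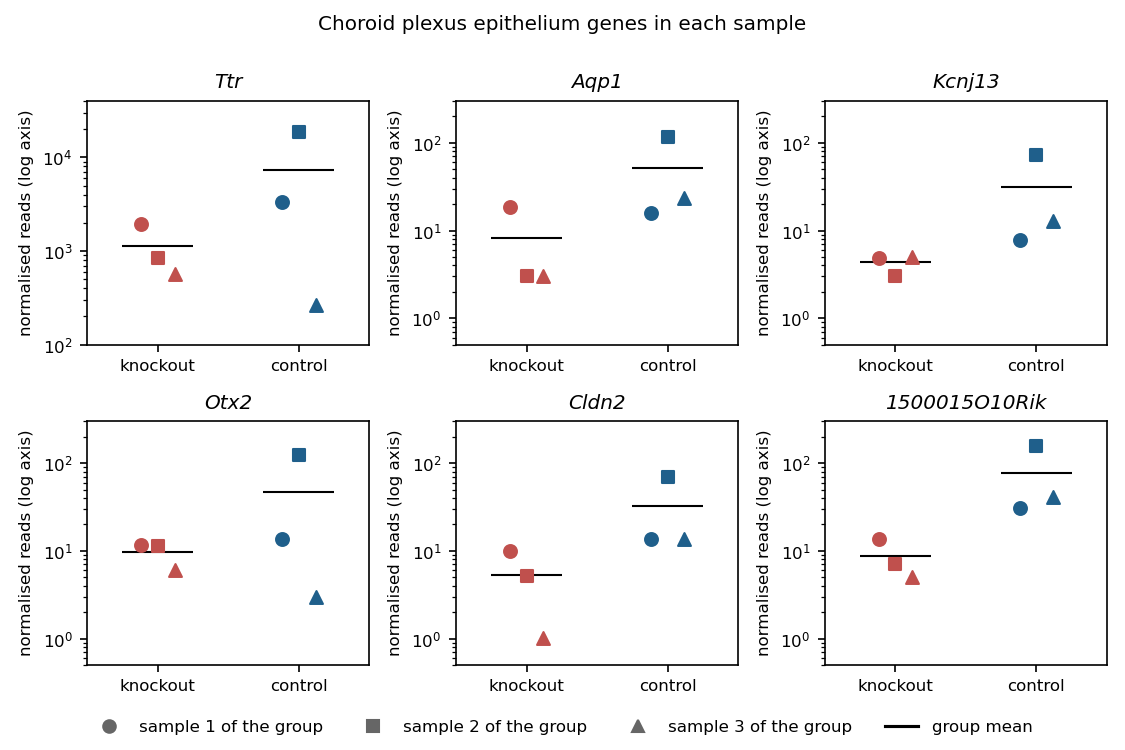
Normalised reads of the 6 choroid plexus epithelium genes (vertical log axis, with a separate range for Ttr) in knockout and control samples; each point is 1 sample, its shape is the sample's number and the line is the group mean. Control 2 is the highest sample in all 6 panels, and control 3 is the lowest in the panels of Ttr and Otx2.

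As a group, 6 of 6 members were lower in the knockout by the means, beside 88.0% of all listed genes, so this count is close to the background. The groups did not overlap for 3 of the 6, all lower, beside 45.3% of all listed genes that were lower without overlap and 55.4% without overlap in either direction. limma called 0 of the 6 at an adjusted p of 0.05 and 0 of the 466 genes (0%), with 3 members and 245 genes (52.6%, or 46.4% counting lower genes alone) at an unadjusted p under 0.05. edgeR also called 0 of the 6, and DESeq2 called 1, 1500015O10Rik (DESeq2 adjusted p = 0.0181), beside 10.3% of listed genes. Leaving out control 1, limma called 1 member beside 42.1% of genes, and leaving out control 3 it called 0 members beside 7.73%. Over the 15 alternatives the adjusted p of 1500015O10Rik ranged from 0.0181 to 0.266, the upper end coming from the setting with 1 control left. The median limma log2 difference was -2.13 for the members and -1.99 for all 466 genes, an order that turned in edgeR (-2.68 and -2.72) and DESeq2 (-2.69 and -2.77). In bulk RNA, fewer cells of a type and less RNA per cell cannot be told apart.

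The size of the difference rested on control 2. It was the highest sample for 6 of 6 members, which was the case for 37.1% of the listed genes, and it lay between 7.94-fold (Cldn2) and 13.7-fold (Otx2) above the mean of the other 5 samples. Without it, the limma log2 difference was below 0 for 4 of 6 members and not for Ttr and Otx2. The median limma log2 difference without control 2 was -1.30 for the members, beside -1.86 for all listed genes. By the means, Ttr was still 1.62-fold lower in the knockout without control 2, and the ratio for Otx2 was 0.859. For the other 4, the fold difference of the means without control 2 was 2.37 for Aqp1 and for Kcnj13, 2.58 for Cldn2 and 4.13 for 1500015O10Rik. None of these 4 passed limma's threshold without it, where the smallest limma adjusted p among them was 0.107, for 1500015O10Rik. With controls 2 and 3 both left out, all 6 had a limma log2 difference below 0. Their median was then -1.41, beside -1.09 for all listed genes. That setting was added after the data were seen and leaves 1 control.

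**Figure D2:**
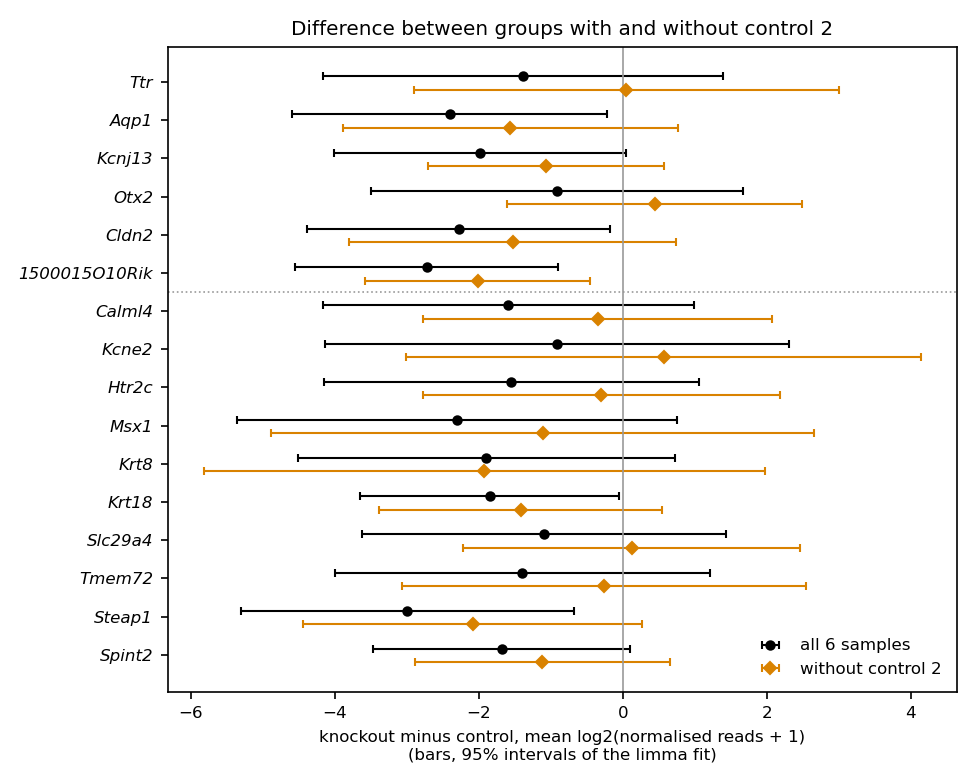
Difference between the groups for the 6 members (above the dotted line) and 10 further choroid plexus genes (below it), as knockout minus control of mean log2(normalised reads + 1), with 95% intervals of the limma fit; black circles use all 6 samples and orange diamonds leave out control 2. Without control 2, the points of Ttr, Otx2, Kcne2 and Slc29a4 lie at or above 0.

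Reads of the members were also set against those of Ttr in the same sample, a proportion that sequencing depth does not change. In 5 of the 6 samples Ttr had 556 to 19148 reads. There the proportion of 1500015O10Rik varied 1.28-fold and those of the other 4 members 2.64-fold to 3.86-fold. These ranges rest on few reads: 1500015O10Rik had 14, 7 and 5 in knockouts 1, 2 and 3, and Cldn2 had 1 in knockout 3. In knockout 3 the 95% Clopper-Pearson interval of 1500015O10Rik was 2.91 to 21.1 per 1000 reads of Ttr. Whether the ranges differ beyond counting error was not tested. For each 1000 reads of Ttr there were 7.04, 8.44 and 8.99 reads of 1500015O10Rik in knockouts 1, 2 and 3 and 9.03 and 8.51 in controls 1 and 2. Control 3 had 155 (95% Clopper-Pearson interval 109 to 215), 17.2-fold above the highest of the other 5. Control 3 was thus the sample with the least Ttr and the second most 1500015O10Rik.

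The other members split in the same sample. Per 1000 reads of Ttr, Aqp1 had 3.62 to 9.55 reads in the 5 samples and 88.6 in control 3 (interval 55.8 to 135). Kcnj13 had 2.33 to 8.99 and 48.0 in control 3 (interval 25.2 to 83.4). Cldn2 had 1.80 to 6.03 and 51.7 in control 3 (interval 27.9 to 88.2). For these 3 channel and junction genes, as for 1500015O10Rik, the interval in control 3 lay above all 5 other intervals. Otx2 did not: it had 4.08 to 13.3 reads per 1000 of Ttr in the 5 samples and 11.1 in control 3 (interval 2.27 to 32.7), on 3 reads. Across the 6 samples the order of Otx2 from high to low was the same as that of Ttr, control 2, control 1, knockouts 1, 2 and 3, and control 3.

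Ttr made up 97.1%, 96.6% and 96.5% of the members' reads in knockouts 1, 2 and 3 and 97.6% and 97.2% in controls 1 and 2. In control 3 it made up 73.8% (Clopper-Pearson interval 69.0% to 78.3%), on 271 of 367 reads. Among the other 5 samples the lowest interval bound was 94.7%. The reads carry no molecular identifiers here, so intervals and limits cover counting error only. No comparison of the groups was made on these proportions, since control 3 is 1 sample.

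**Figure D3:**
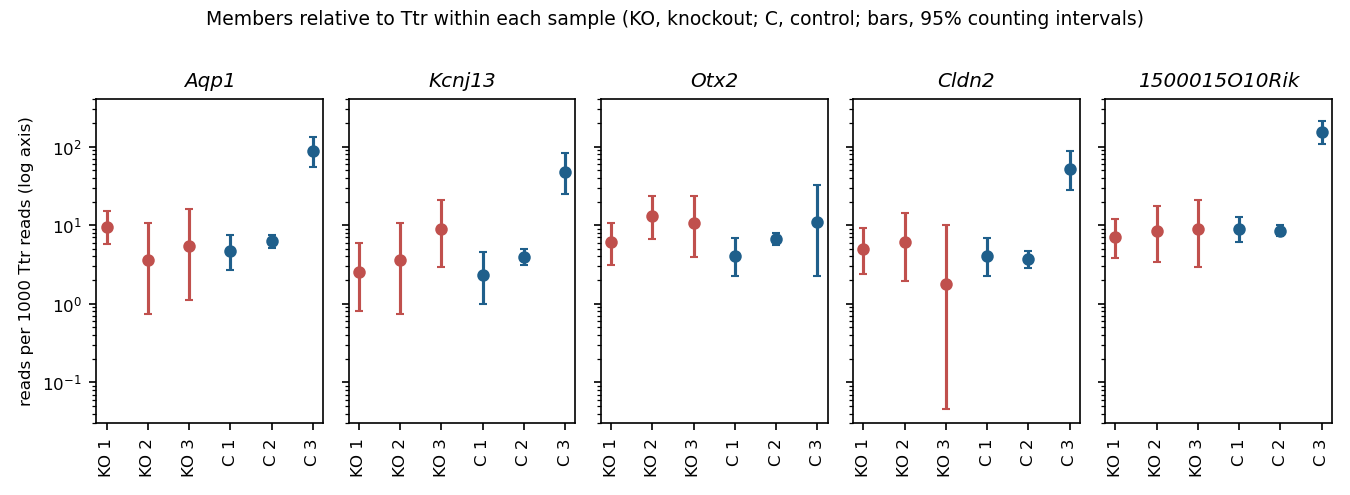
Reads of 5 members per 1000 reads of Ttr in each sample (vertical log axis; red, knockout; blue, control; bars are 95% Clopper-Pearson intervals for counting error). Control 3 lies between 48.0 and 155 for Aqp1, Kcnj13, Cldn2 and 1500015O10Rik, above the other 5 samples, and at 11.1 for Otx2, within their range.

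Levels of different genes were compared per kilobase, with the gene lengths of the authors' deposited table. In controls, Ttr stood at 6072 ± 8036 normalised reads per kilobase and 1500015O10Rik at 84.8 ± 78.5, followed by Kcnj13 at 24.5 ± 28.5, Aqp1 at 19.7 ± 21.3, Otx2 at 11.2 ± 16.0 and Cldn2 at 9.65 ± 9.57 (SD, n = 3 each). In the knockouts Ttr stood at 920 ± 604 and 1500015O10Rik at 9.60 ± 5.04 normalised reads per kilobase, and the other 4 had means between 1.60 and 3.42 (n = 3). Ttr was first and 1500015O10Rik second in 6 of 6 samples. Below them the order was less fixed: Kcnj13 was above Aqp1 in 5 of 6 samples, Aqp1 above Otx2 in 4 and Otx2 above Cldn2 in 3. The spread over samples was as large as the gaps between these 4 neighbours.

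A longer list of 28 further choroid plexus epithelium genes shares none with the 6. Of these, 11 were listed, all 11 as lower in the knockout beside 88.0% of the table, and neither limma nor the authors' deposited table called any at an adjusted p of 0.05 (0 of 11). limma gave 3 of the 11 an unadjusted p under 0.05, beside 46.4% of listed genes that were lower at that p. Their median limma log2 difference was -1.68, beside -1.99 for all listed genes. Control 2 was the highest sample for 10 of the 11, and control 3 for Krt8. Without control 2, the limma log2 difference was below 0 for 9 of the 11 and above it for Kcne2 (0.57) and Slc29a4 (0.13), while the means of all 11 were still lower in the knockout. The 17 genes of this list that are not in the table were not analysed here.

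Htr2c, the serotonin receptor gene that is abundant in choroid plexus, had 16.7, 6.13 and 6.07 normalised reads in knockouts 1, 2 and 3 against 27.5, 158 and 3.91 in controls 1, 2 and 3. Steap1, a metalloreductase family gene, had 3.93, 0 and 0 against 7.85, 46.6 and 4.89. Its groups did not overlap, on 4 reads in knockout 1 and 5 in control 3. Without overlap were 3 of the 11 further genes, Steap1 among them, beside 45.3% of listed genes that were lower without overlap. Msx1, a dorsal midline homeobox gene, had 7.86, 0 and 3.04 against 24.5, 83.4 and 0.978. Htr2c, Steap1 and Msx1 share the peak in control 2. Htr2c was lowest in control 3, like Ttr and Otx2, and so were Kcne2, Slc29a4 and Tmem72 of the longer list. Msx1 was low there too, at 0.978, but lowest in knockout 2.

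The longer list was also set against Ttr. In control 3, 4 of the 11 genes lay above all 5 other samples by their intervals. Among them Krt8 had 384, Krt18 114 and Spint2 137 reads per 1000 of Ttr. For the other 7 the interval of control 3 touched that of another sample. Steap1 had 18.5 there, on 5 reads (lower bound 5.94), 7.36-fold above the highest of the other 5 samples at 2.51 (largest upper bound 6.66). Control 3 was also the highest of the 6 samples for Calml4, at 18.5 against at most 10.9, for Htr2c, at 14.8 against at most 10.8, and for Tmem72, at 7.38 against at most 6.41. It was not for Slc29a4, at 11.1 against up to 13.3, for Msx1, at 3.69 against up to 7.28, or for Kcne2, a potassium channel subunit gene with no reads in control 3 (upper bound 13.7). Krt8 and Krt18 encode the keratin pair of simple epithelia, and Spint2 a membrane protease inhibitor of epithelia. Krt8 had 102 normalised reads in control 3 against 3.92 and 20.4 in the other controls, so its high value was in the sample where Ttr was lowest. Reads of Krt8 and Krt18 are uncertain where processed pseudogenes share their sequence.

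**Figure D4:**
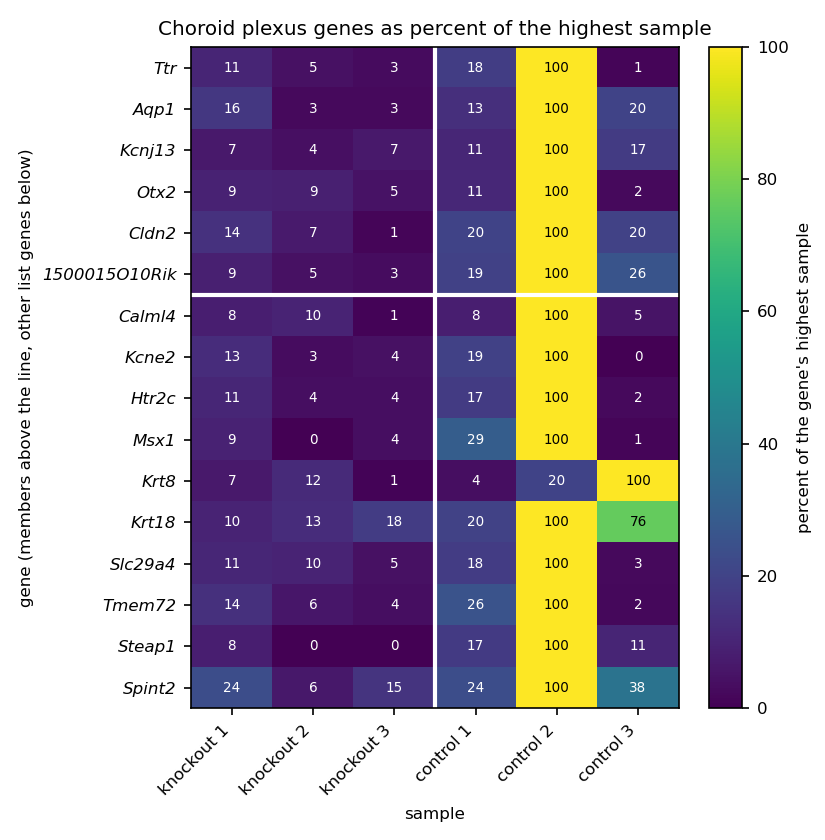
Normalised reads of the 6 members (above the white line) and 10 further choroid plexus genes (below it) in each of the 6 samples, as a percentage of the gene's highest sample (colour scale and printed numbers). Control 2 is at 100 for every gene shown except Krt8, which is at 20.0 there and at 100 in control 3.

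By function, 5 of 23 genes for water and ion transport into the cerebrospinal fluid were listed, all lower: Kcnj13, Aqp1, Kcne2, Atp1b1, a sodium pump subunit gene, and Fxyd1, a sodium pump regulator gene. Atp1b1 had 61.0, 35.7 and 6.07 normalised reads in knockouts 1, 2 and 3 against 53.0, 213 and 117 in controls 1, 2 and 3. Of 18 genes for thyroid hormone and retinol carriage, 4 were listed as lower, among them Ttr and Stra6, the retinol uptake receptor gene. Stra6 had 2.95, 2.04 and 0 normalised reads in knockouts 1, 2 and 3 against 0.981, 39.8 and 1.96 in controls 1, 2 and 3. Of 20 tight junction genes Cldn2 alone was listed, and of 16 transcription factor genes of the dorsal midline and choroid plexus Otx2, Msx1 and Foxj1 were. Across these 4 lists, which overlap one another and the members, limma called 0 genes and the authors' deposited table called 0 (1500015O10Rik is in none of them).

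Among the 5 genes whose pattern over the 6 samples was most like the mean standardised profile of the members, among 230 other listed genes with a mean of at least 10 normalised reads, were Pltp (r = 0.997), Kcnk1 (r = 0.985), Tspyl4 (r = 0.979) and Tenm4 (r = 0.973). The measure is Pearson's r of log2(value + 1) over 6 samples that share 2 groups and 1 table, and is given as a description. Pltp, a phospholipid transfer protein gene, had 62.9, 42.9 and 33.4 normalised reads in knockouts 1, 2 and 3 against 68.7, 204 and 62.6 in controls 1, 2 and 3. Kcnk1, a background potassium channel gene, had 6.88, 4.08 and 4.05 against 8.83, 52.4 and 5.87. In both, control 2 was the highest sample and control 1 the next. Between pairs of members r ranged from 0.646 (Ttr and 1500015O10Rik) to 0.959 (Aqp1 and 1500015O10Rik), and it was 0.958 for Ttr and Otx2.

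Markers of other cells differed in whether they peaked in control 2, as the members did, or in control 3. In control 3 the members' summed level of 359 normalised reads was the lowest of the 6 samples, but Ttr gave 265 of it. The other 5 members summed to 93.9 there, against 81.4 and 541 in controls 1 and 2 and 20.2 to 59.0 in the knockouts. Of 30 ependymal and motile cilium genes 4 were listed, Foxj1, Rsph1, Ak7 and Cfap44, all highest in control 2. Their summed level was 8.09 to 25.6 normalised reads in the knockouts and 47.1, 151 and 13.7 in controls 1, 2 and 3, and Cfap44 was at 0 in control 1 and in all knockouts. Of 20 stromal and meningeal fibroblast genes 7 were listed, and their sum was 21.2 to 68.8 in the knockouts and 131, 588 and 400 in controls 1, 2 and 3. Of these, Igfbp2 and Ptgds were highest in control 2 and Col6a1, Col6a2, Ogn, Apod and Dpep1 in control 3. Col6a1, a collagen chain gene, had 147 normalised reads in control 3 against 3.92 and 21.3 in controls 1 and 2. The 7 listed of 18 neuron markers had a sum of 12.1 to 68.4 in the knockouts and 75.5, 177 and 796 in controls 1, 2 and 3. Thy1 alone gave 542 of the 796, and 6 of the 7 were highest in control 3. For the 2 listed of 7 red blood cell genes the sum was 0 to 28.6 in the knockouts and 28.5, 176 and 268 in controls 1, 2 and 3. Of 14 endothelial genes Pltp alone was listed, of 13 astrocyte genes Gja1 and Sox9, of 15 border macrophage genes Cd209a, which was lower, and Clec4n, which was higher, and 0 of 13 oligodendrocyte genes. The part of these other cells in the values of the 6 members was not tested.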

How the data were processed

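Per the labels' protocols, poly(A) RNA of isolated microglia was read from both ends (150 bases each). Samples were grouped by title, with 3 per group, with the animals per sample not stated, and p-values measure only sample-to-sample spread, which may be technical. The submitters' processing notes name, without role or order, R 3.6.1, RSEM 1.2.30, HISAT2, DESeq2, cutadapt 1.11 and the build GRCm38. Each gene and sample has, in the authors' deposited table, a normalised read count (a signal, not a raw count). All values (100%) were whole multiples of the value of 1 read in their sample (tolerance 1e-06), so reads were recovered, with size factors of 0.979 to 1.03. The log2 fold change, p-value and adjusted p-value printed from that deposited table were computed by the authors with a test that the sources used here do not name. The adjusted p-values correspond to 19107 genes. The sources used here do not say if strand was used in counting.

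All 466 listed genes were fitted with limma 3.58.1 in R 4.3.3 on log2(value + 1) with a mean-variance trend, no filter and Benjamini-Hochberg adjustment, at a threshold of 0.05. Fold changes on this scale understate those of low genes. For Ttr the limma log2 difference was -1.39 with a pseudocount of 0.5 or 5 too, beside -2.72 in edgeR and DESeq2. limma compares means of logs, while edgeR and DESeq2 compare mean reads. The recovered reads were tested with edgeR 4.0.16 and DESeq2 1.42.0, and the scripts were tested on simulated data. Depth is unknown. The members and lists were chosen with earlier results of these data known. Named genes were the 6 members, Cx3cr1, up to 4 genes per list by the authors' p, and the 5 genes most like the members; some of these are not reported here, though counts include them. Other list genes named in the text were chosen after their values were seen. Promoters matched 5 of 6 members and 10 of 11 further genes.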

Additional observations from a re-analysis of the deposited data

How the results depend on the processing

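Of the 6 members, Aqp1, Kcnj13, Cldn2 and 1500015O10Rik were lower in the knockout under all 15 alternatives, and Ttr and Otx2 under 13. Without control 2, Ttr came to 0.046 and Otx2 to 0.44, and after rescaling by the listed genes' median ratio they came to 0.19 and 0.49 (limma, log2). The rescaling raised the median of all genes by 1.03, to -0.97, in a table where most genes are listed as lower. It brought the median of the members to -0.75 and that of the 11 further choroid plexus genes to -0.28. 1500015O10Rik passed limma's threshold with a pseudocount of 0.5 (-2.80, adjusted p = 0.0441) and without control 1 (-3.18, adjusted p = 0.0376), and passed with DESeq2 (-3.14, adjusted p = 0.0181). The number of members called was 1 in each of these and 0 otherwise. Leaving out 1 sample at a time gave log2 differences of -3.02 to 0.046 for Ttr, -2.06 to 0.44 for Otx2 and -3.18 to -2.01 for 1500015O10Rik, medians of -2.67 to -1.30 for the members, and 0 to 1 members called.

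Over the whole table the number of limma calls was 0, 120 with a pseudocount of 0.5, 1 among genes with a mean of at least 10, 56 after the rescaling, 4 with the replicate block, 54 without controls 2 and 3 together (where the lone control is assumed to vary like the knockouts), and 0 to 196 with 1 sample left out (196 without control 1, 36 without control 3). DESeq2 called 48. The cause of these changes in the number of calls was not tested. In the main fit several genes shared a limma adjusted p of 0.0533, just above the threshold, among them 1500015O10Rik, Cx3cr1 and Col6a1. Same-numbered samples had deviations from their group means correlated at -0.04, -0.04 and 0.07, and knockout 1 correlated best with control 2 (0.27). With 3 samples per group, such correlations cannot show whether the replicate numbers pair the samples. The replicate block changed no call among the members, though for Ttr the SE fell from 1.24 to 0.685 (limma adjusted p = 0.298 and 0.103). All members but Ttr rest on 1 to 19 reads per knockout sample.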
